A study of Homo sapiens with 6 samples.

Results

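The genes described here are those that encode WNT ligands, their Frizzled receptors and co-receptors, secreted antagonists, the β-catenin destruction complex, TCF/LEF factors and feedback inhibitors. Members were chosen by name among the protein-coding genes of the deposited table, as symbols of WNT or FZD followed by a number plus a fixed set of named co-receptors, antagonists and signaling genes. This gave 56 of the 58735 genes listed. They were measured in H1155 cells, a lung cancer line that the labels call neuroendocrine large cell, in 3 libraries labelled WT and 3 labelled GFI1-KO. Both groups were untreated and grown in DMEM with 10% FBS. By the study's methods, the GFI1-KO cells carried a CRISPR/Cas9 deletion aimed at the GFI1 promoter, made with paired guides and recovered as sorted GFP+ monoclonal cells. How many clones stand behind the 3 libraries is not given in the sources used here, nor is whether libraries of a group came from separate cultures, so p-values measure the spread between these libraries. The comparison asks which WNT pathway transcripts differed between the groups.

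WNT proteins are secreted, lipid-modified ligands that bind Frizzled receptors together with a co-receptor. With LRP5 or LRP6, they stop the destruction complex of AXIN, APC and kinases from degrading β-catenin, which then enters the nucleus and activates genes through TCF/LEF factors. With ROR1, ROR2 or RYK, they signal largely without β-catenin, in cell polarity and migration. Several pathway genes, among them AXIN2, LEF1, NKD1, LGR5, RNF43 and ZNRF3, are themselves targets of the β-catenin branch in many tissues.

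Library totals ranged from 14882914 to 16102215 counts for WT and from 17503794 to 17692882 for GFI1-KO, so that 3 counts, the least taken as shown, equalled 0.170 to 0.202 CPM (counts scaled to a common library total). The edited gene was checked first. GFI1, a zinc finger repressor, had 153, 106 and 125 counts where the label was WT and 174, 188 and 170 where it was GFI1-KO. It was therefore not lower in the latter (log2 fold change 0.31, SE 0.12, adjusted p = 0.0273), and in these data every direction below rests on the labels alone, WT and GFI1-KO standing for libraries so labelled. The paper shows an immunoblot of GFI1 protein for the deleted H1155 cells, whereas these counts measure RNA only. With offsets for GC content the GFI1 difference was -0.01 (adjusted p = 0.964), and the call was also lost in DESeq2 (adjusted p = 0.0720), with upper-quartile factors (adjusted p = 0.0545) and without WT 2, WT 3 or GFI1-KO 2 (adjusted p = 0.147, 0.0633 and 0.0927). The 12 neuroendocrine markers examined all passed the count filter, with summed FPKM of 862 to 873 in WT and 1116 to 1134 in GFI1-KO. Of these markers 8 were higher (66.7%, against 36.5% of all genes tested) and 4 lower (33.3%, against 35.9%). With the offsets 4 were higher (33.3%, against 32.6%) and 7 lower (58.3%, against 28.0%). The filter was passed through the libraries of 1 group alone by 1 marker. Each of the 5 leukocyte markers had at most 7 counts in any library, and CD3E had none. Of the 8 fibroblast markers 5 were tested, 2 of them higher (40%, against 36.5%) and 3 lower (60%, against 35.9%). The list summed to 17.7 to 18.1 FPKM in WT and 12.6 to 13.0 in GFI1-KO, and DCN had no count. The 2 higher ones, COL3A1 and PDGFRA, passed the count filter through their GFI1-KO libraries alone, so their rises are descriptions. Of the 4 endothelial markers PECAM1 was lower, and the list summed to 3.53 to 3.97 FPKM in WT and 1.76 to 1.99 in GFI1-KO, with KDR and VWF near 0. The 6 epithelial markers summed to 43.6 to 46.4 FPKM in WT and 46.5 to 51.7 in GFI1-KO. Of the 5 tested KRT8 was higher, from 2277 to 3105 normalized counts, while EPCAM (66.9 to 14.2) and CDH1 (26.98 to 5.39) were lower. CDH1 passed the count filter through its WT libraries alone, so its fall is a description. The part of these shifts in the results below was not tested.

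ROR1, WNT3A, FZD3 and LEF1 fell and FZD8, TCF7L1, WNT6, WNT5A, FZD7, SFRP1 and LRP5 rose, all by at least 2-fold, so that ligands, receptors and nuclear factors each had members in both directions. Of the 56 genes, 42 passed the count filter. Among the 42, 17 rose and 13 fell in libraries with the GFI1-KO label, and 12 did not pass the test (edgeR quasi-likelihood test, Benjamini-Hochberg adjustment over all genes, adjusted p of at most 0.05). One of the 13, WNT11, passed the filter through its WT libraries alone. The 30 called genes were 71.4% of those tested, whereas 72.4% of all 17514 tested genes were called. By direction, 40.5% of the members were higher against 36.5% of all genes, and 31.0% were lower against 35.9%. A log2 fold change of at least 1 was seen for 7 of the higher members (16.7%, against 10.2% of all genes), and one of at most -1 for 5 of the lower members (11.9%, against 7.29%). Groups were without overlap in normalized counts for 31 members (73.8%, against 74.4%). For such genes an exact permutation test of 3 against 3 libraries gives p = 0.1, the smallest it can reach. The median log2 fold change of the 42 members was -0.0046, and that of all tested genes was 0.0005. In this fit the called share of the pathway was close to that of the whole table, and no member count is read as particular to the pathway. In bulk RNA, fewer cells that express a gene and less RNA per cell cannot be told apart.

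**Figure D1:**
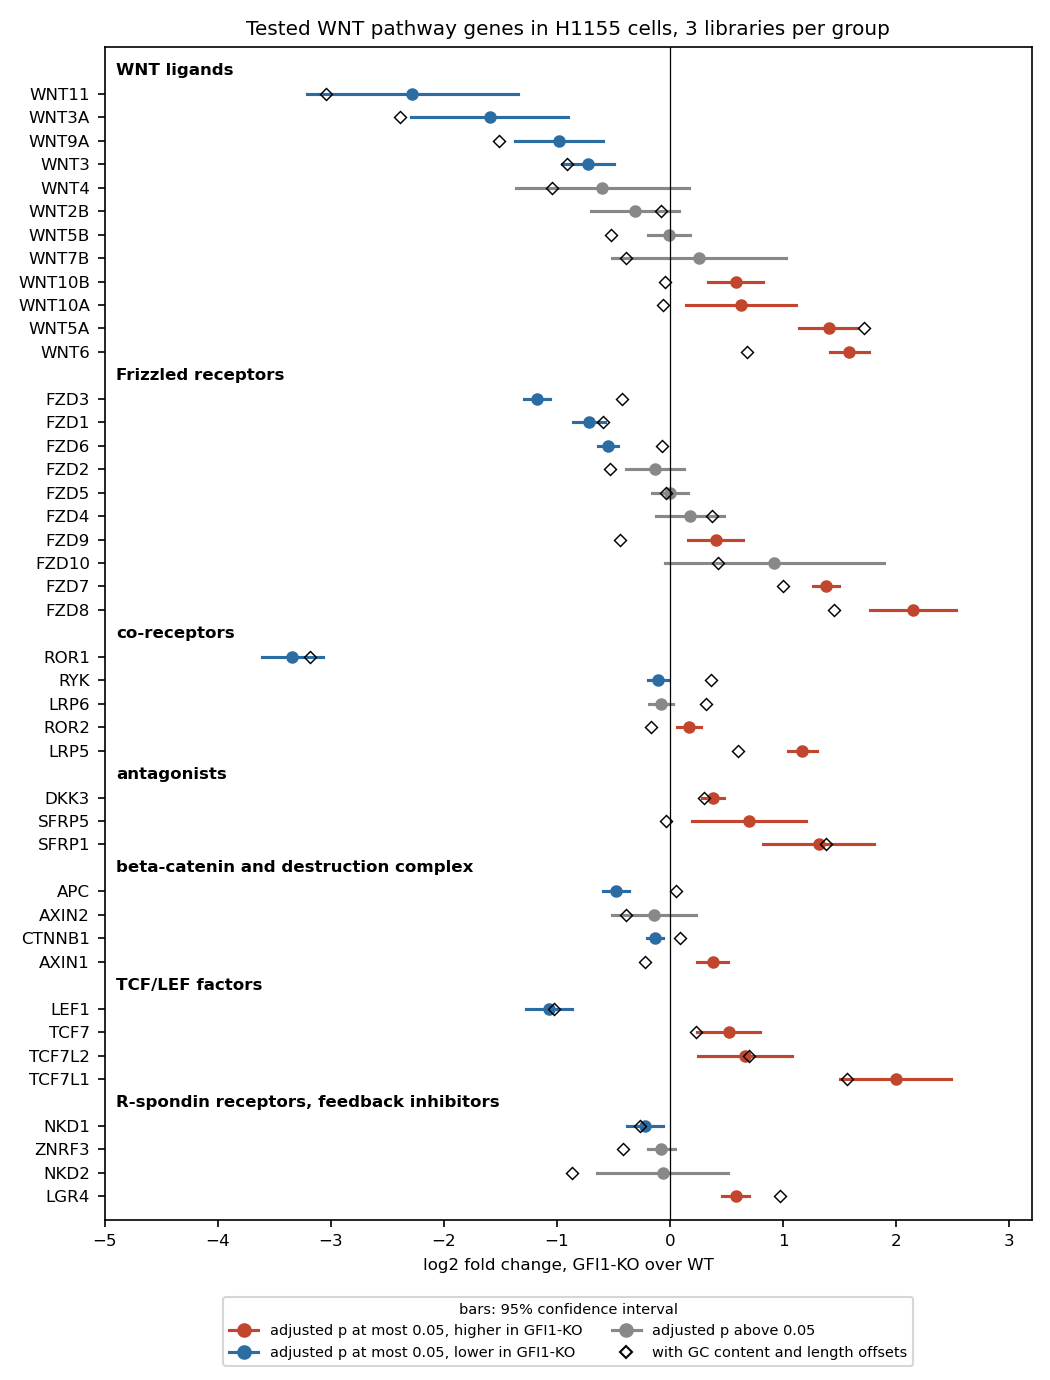
Log2 fold change of each tested member, GFI1-KO minus WT, by role in the pathway, from edgeR with 95% confidence intervals (3 libraries per group), with the value after GC content and length offsets beside it. ROR1 lies farthest below 0 at -3.34, and FZD8 and TCF7L1 lie farthest above at 2.15 and 1.99.

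Across all tested genes, the log2 fold change rose with the GC content of the transcripts (Spearman's rho 0.587, across genes, which are not independent replicates). Because this trend separates the groups, its source cannot be told apart from the genotype, and values after per-library offsets for GC content and gene length are given below beside the fold changes. The FPKM values themselves carry no such offset. The offsets brought rho to 0.0259. Among the 42 members, whose GC content ranged from 35.2% for FZD3 to 71.7% for WNT6, rho was 0.277 before and -0.220 after the offsets. The trend among members thus turned sign, so their values with the offsets are not taken as free of GC content. In the fit with offsets 14 members were higher (33.3%, against 32.6% of all 17415 genes tested there) and 17 lower (40.5%, against 28.0%), 73.8% in all against 60.6%. Of the 30 calls without offsets 19 remained, 10 higher and 9 lower. SFRP5, APC, FZD6, TCF7, WNT10A and WNT10B lost their call, and AXIN1, CTNNB1, ROR2, RYK and FZD9 turned direction. LRP6, FZD2, FZD4, NKD2, ZNRF3, WNT4 and WNT5B gained a call. All 12 members whose log2 fold change was 1 or more in size kept their call and direction, and 9 of them stayed at 1 or more.

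**Figure D2:**
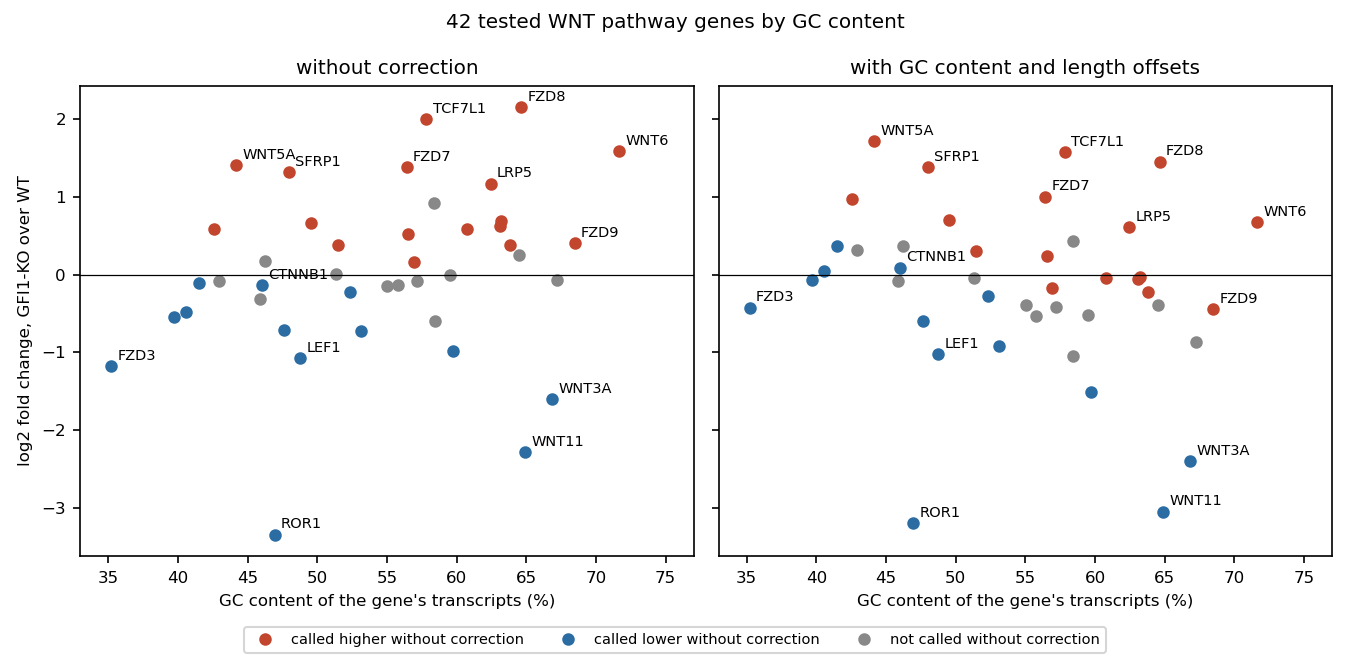
Log2 fold change, GFI1-KO minus WT, against transcript GC content in percent for the 42 tested members, before and after the offsets for GC content and length. Before the offsets GC-rich WNT6 (71.7%) and GC-poor FZD3 (35.2%) sit at 1.59 and -1.18, and after them at 0.68 and -0.42.

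Promoters of the members were also GC-rich. RefSeq promoter windows on GRCh38.p14, from 250 bases before to 50 bases after the transcription start, were matched for 39 of the 56 genes, some of them with more than 1 start. The median window had 68.0% GC and 28 CG dinucleotides, against 58.7% and 14 in all 35116 windows. Windows are shown for 2 members that fell, ROR1 and LEF1, and 2 that rose, WNT6 and LRP5, because they span this range. CG dinucleotides are in capitals, and each is read 5′ to 3′ on the strand of the gene.
ROR1, chr1:63773767-63774066, plus strand: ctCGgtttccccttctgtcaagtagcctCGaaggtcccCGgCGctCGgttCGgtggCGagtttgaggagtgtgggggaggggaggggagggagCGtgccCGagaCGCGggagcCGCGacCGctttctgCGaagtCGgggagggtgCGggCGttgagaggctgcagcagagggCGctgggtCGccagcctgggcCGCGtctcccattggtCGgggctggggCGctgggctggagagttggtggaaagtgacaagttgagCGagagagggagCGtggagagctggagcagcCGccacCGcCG
LEF1, chr4:108166252-108166551, minus strand: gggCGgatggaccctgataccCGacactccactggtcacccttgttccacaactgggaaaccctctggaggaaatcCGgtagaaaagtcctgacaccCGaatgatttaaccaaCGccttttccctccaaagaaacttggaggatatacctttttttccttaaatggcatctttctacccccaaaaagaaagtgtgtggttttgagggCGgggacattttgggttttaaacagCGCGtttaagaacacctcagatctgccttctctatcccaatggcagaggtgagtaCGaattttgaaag
WNT6, chr2:218859555-218859854, plus strand: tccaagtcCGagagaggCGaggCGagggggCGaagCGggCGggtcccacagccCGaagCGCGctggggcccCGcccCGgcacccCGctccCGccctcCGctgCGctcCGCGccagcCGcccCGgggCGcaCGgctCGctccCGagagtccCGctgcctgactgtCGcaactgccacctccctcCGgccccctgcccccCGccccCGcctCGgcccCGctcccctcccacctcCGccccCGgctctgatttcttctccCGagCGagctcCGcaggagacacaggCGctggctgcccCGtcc
LRP5, chr11:68312341-68312640, plus strand: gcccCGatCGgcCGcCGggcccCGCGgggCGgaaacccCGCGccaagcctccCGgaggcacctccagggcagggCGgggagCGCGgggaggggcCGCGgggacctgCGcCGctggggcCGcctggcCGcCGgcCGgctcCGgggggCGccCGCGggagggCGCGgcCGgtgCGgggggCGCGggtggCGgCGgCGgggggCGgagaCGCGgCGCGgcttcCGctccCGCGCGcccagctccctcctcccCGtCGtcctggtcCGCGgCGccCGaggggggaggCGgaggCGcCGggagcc
The LEF1 window held 47.0% GC and 9 CG, that of ROR1 69.0% and 29, that of WNT6 78.0% and 37, and that of LRP5 86.7% and 52. Of these 4, ROR1, which fell, and WNT6 and LRP5, which rose, had windows rich in CG. The LEF1 window was the poorest and lay below the medians of all windows. The RefSeq start of LEF1 used here lies inside the interval that the deposited table gives for the gene, whose 5′ end is at 108168956. Its window may therefore not be the promoter in use in these cells, which was not tested. The letters ATCAAAG, which TCF/LEF factors prefer, were searched on both strands and were found in none of the members' windows, against 2.62% of all windows. At that share few matches would be found in so few windows, so the lack is not read as a result. Of the targets named at the start, AXIN2, NKD1, ZNRF3 and LGR5 had no matched window and were not searched. The letters AAATCAC, a core that GFI1 prefers, occurred in 1 member, LGR4, or 2.13% of the members' windows, against 3.14% of all windows. The stretch around it is shown, with the match, which reads as the reverse complement of those letters, in capitals. The match ends 31 bases before the start.
LGR4, chr11:27472802-27472848, minus strand: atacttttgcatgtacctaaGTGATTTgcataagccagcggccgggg
A match of letters is not a bound site, and its lack says only that the letters are not in the window.

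Among the 19 WNT ligand genes, WNT6 carried the most RNA in both groups and WNT5A rose with it, while WNT11, WNT3A, WNT9A and WNT3 fell. Of the 12 ligands tested, 4 were higher (33.3%, against 36.5% of all genes), 4 lower (33.3%, against 35.9%) and 4 did not pass the test. WNT6, a ligand known from kidney and epithelial development (chromosome 2, 218859821 to 218874233, plus strand, GRCh38), had 194, 199 and 174 counts in WT and 612, 606 and 686 in GFI1-KO. All 3 libraries labelled GFI1-KO lay far above all 3 labelled WT. Its normalized counts were 201 ± 18.9 and 601 ± 38.9 (SD, n = 3), a rise of 1.59 on the log2 scale (SE 0.08, adjusted p = 3.0e-15). WNT6 had the highest GC content of the tested members, and with the offsets the rise was 0.68 (adjusted p = 3.7e-08). WNT5A, the main ligand of ROR receptors (chromosome 3, 55465715 to 55490539, minus strand), had 78, 64 and 80 counts in WT and 205, 231 and 220 in GFI1-KO. The groups did not overlap, and the rise was 1.40 (SE 0.13, adjusted p = 1.8e-10), or 1.71 with the offsets.

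WNT11, another ligand of the β-catenin-independent branch (chromosome 11, 76186325 to 76210736, minus strand), had 22, 12 and 37 counts in WT and 6, 7 and 3 in GFI1-KO. Even the lowest WT library stood above the highest GFI1-KO library, although the WT libraries differed widely among themselves. Because WNT11 passed the count filter through its WT libraries alone, its log2 fold change of -2.28 (SE 0.45) is a description. It was -3.04 with the offsets and -2.58 to -1.82 with each library left out in turn. WNT3A, a ligand that activates β-catenin (chromosome 1, 228007051 to 228061260, plus strand), had 33, 21 and 28 counts in WT and 10, 9 and 11 in GFI1-KO. Again the groups were apart, at low counts, and the log2 fold change was -1.60 (SE 0.34, adjusted p = 1.4e-04), or -2.39 with the offsets. WNT9A, a ligand of joint and skeletal development and the neighbour of WNT3A, had 82, 79 and 88 counts in WT and 36, 50 and 55 in GFI1-KO. Its log2 fold change was -0.98 (SE 0.19, adjusted p = 5.1e-05), or -1.51 with the offsets. WNT3, which also signals through β-catenin, went from 292 ± 47.3 to 176 ± 16.9 normalized counts (log2 fold change -0.73, SE 0.11, adjusted p = 1.8e-06, -0.91 with the offsets).

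Neighbouring ligand genes could be read side by side. WNT9A and WNT3A lie 59152 bases apart on chromosome 1, and both fell. WNT6 and WNT10A lie 6129 bases apart on chromosome 2. WNT10A, a ligand of skin and tooth development, had 25, 30 and 40 counts in WT and 62, 52 and 50 in GFI1-KO. Its rise of 0.62 (SE 0.24, adjusted p = 0.0205) did not pass in DESeq2 (adjusted p = 0.0502), without WT 1 (adjusted p = 0.112), without GFI1-KO 1 (adjusted p = 0.0898) or with the offsets, which gave -0.06. WNT10B, a ligand of bone and mammary development, rose by 0.58 (SE 0.12, adjusted p = 1.0e-04), but with the offsets it was at -0.05 (adjusted p = 0.760). Its neighbour WNT1 had 3, 2 and 4 counts in WT and 1, 0 and 1 in GFI1-KO. WNT9B, next to WNT3, had no count in any library.

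The remaining tested ligands did not differ by the test. WNT5B, a relative of WNT5A, gave 257 ± 9.89 and 255 ± 11.1 normalized counts, with a log2 fold change of -0.01 and a 95% interval of -0.19 to 0.17, but -0.52 with the offsets (adjusted p = 1.8e-05). It overlaps FBXL14 on the opposite strand, with 2546 counts over the 6 libraries, and the strand setting of the counting is not given in the sources used here. WNT4 (log2 fold change -0.60, 95% interval -1.36 to 0.16), WNT2B (-0.31, -0.70 to 0.08) and WNT7B (0.25, -0.52 to 1.02) had wide intervals. With the offsets they were at -1.05 (adjusted p = 0.0188), -0.08 and -0.39. WNT2B overlaps ST7L, with 1667 counts, in the same way.

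**Figure D3:**
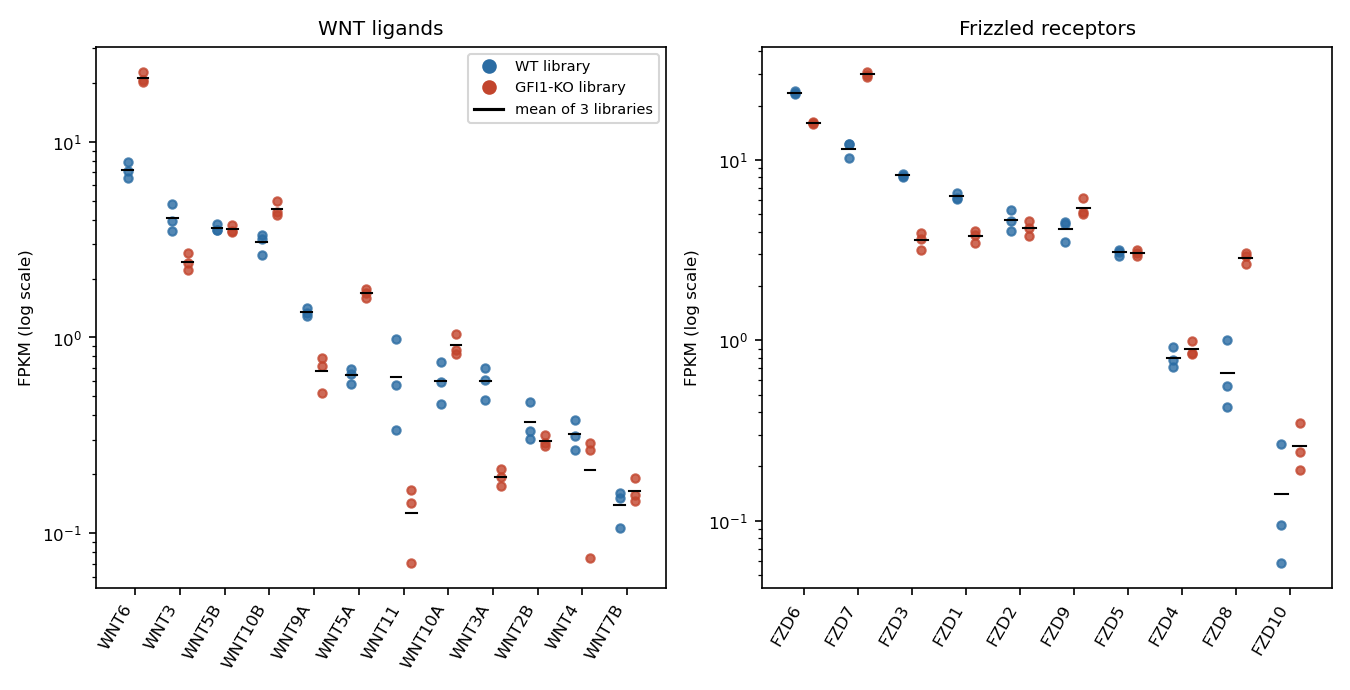
FPKM of the 12 tested WNT ligand genes and the 10 Frizzled genes in each library, on log axes, with a point per library and a line at the mean of each group of 3, ordered by the WT mean. WNT6 tops its panel in both groups and FZD7 tops its panel in GFI1-KO, at 21.2 and 29.8 FPKM in GFI1-KO, while WNT11, WNT3A and FZD3 lie lower there than in WT.

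Levels of different genes were compared per length, as FPKM, computed from the count, the gene length and the library total. WNT6 took 31.1 ± 3.68% of the summed FPKM of the 19 ligand genes in WT and 58.5 ± 1.52% in GFI1-KO. WNT3 went from 17.7 ± 2.46% to 6.73 ± 0.364%, and WNT5B from 15.8 ± 0.339% to 9.84 ± 0.136%. WNT6 stood first in both groups, WNT3 second in WT and behind WNT10B and WNT5B in GFI1-KO. In WT the shares of WNT3 and WNT5B overlapped between libraries, and WNT10B lay below both, at 13.3 ± 1.81%. The summed ligand FPKM was 23.0 ± 0.549 in WT and 36.2 ± 1.54 in GFI1-KO. This sum carries no offset. With the offsets 2 of the 12 tested ligands were higher (16.7%, against 32.6% of all genes) and 6 lower (50%, against 28.0%), in place of 4 and 4. The rise of WNT6 was then 0.68 in place of 1.59. The ratio of WNT6 to WNT3, by FPKM, was 1.80 ± 0.443 in WT and 8.70 ± 0.366 in GFI1-KO. On the log2 scale this ratio rose by 2.31 in the fit without offsets and by 1.59 with them. If the WT FPKM of the tested ligands is multiplied by the fold with offsets, WNT6 goes from 31.7% to 49.6%.

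**Figure D4:**
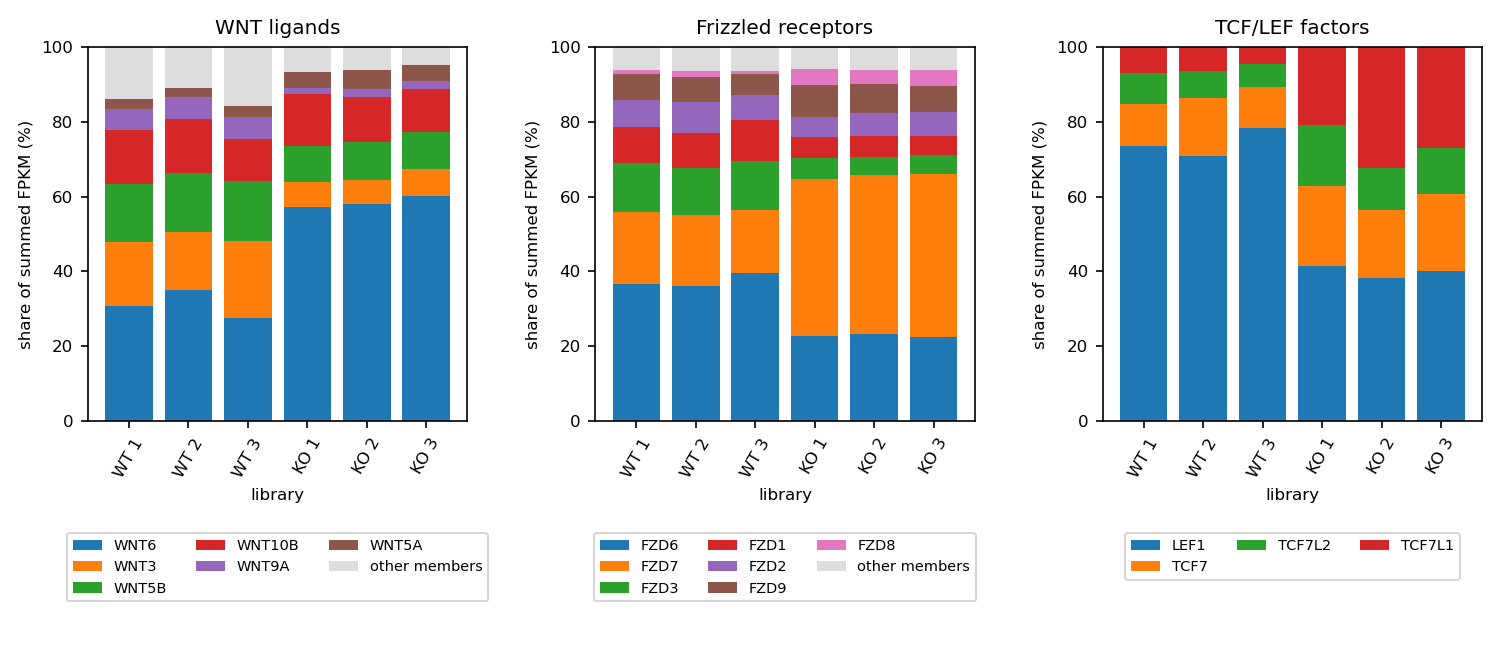
Share of the summed FPKM of the WNT ligands, Frizzled receptors and TCF/LEF factors taken by each gene, in percent, with 1 stacked bar per library. On average WNT6 grows from 31.1% to 58.5% of ligand FPKM, FZD7 from 18.3% to 42.7% of Frizzled FPKM and TCF7L1 from 5.96% to 26.8% of TCF/LEF FPKM, while LEF1 shrinks from 74.2% to 39.9%.

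All 10 Frizzled genes, the receptors of WNT ligands, were tested. FZD7, FZD8 and FZD9 were higher (30%, against 36.5% of all genes) and FZD1, FZD3 and FZD6 lower (30%, against 35.9%). The other 4 did not pass the test. FZD7 (chromosome 2, 202034587 to 202038445, plus strand), a receptor studied in stem cells and carcinomas, had 763, 702 and 618 counts in WT and 2007, 1956 and 2110 in GFI1-KO. Every library labelled GFI1-KO lay far above every WT library. The normalized counts averaged 736 ± 75.4 and 1917 ± 66.2, a rise of 1.38 (SE 0.06, adjusted p = 1.5e-17), or 1.00 with the offsets. FZD8 (chromosome 10, 35638249 to 35642278, minus strand), another receptor of the β-catenin branch, had 36, 60 and 27 counts in WT and 215, 187 and 210 in GFI1-KO. The groups were far apart although WT 2 was above the other WT libraries. Its rise was 2.15 (SE 0.18, adjusted p = 6.8e-11), or 1.45 with the offsets.

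FZD3 (chromosome 8, 28494205 to 28574268, plus strand), a receptor of axon guidance and planar polarity, had 1860, 1678 and 1750 counts in WT and 953, 770 and 890 in GFI1-KO. All GFI1-KO libraries lay below all WT libraries. The fall was -1.18 (SE 0.06, adjusted p = 3.9e-16) and -0.42 with the offsets (adjusted p = 1.4e-07), FZD3 being the member with the lowest GC content. FZD1, a receptor of the β-catenin branch, went from 719.6 ± 30.6 to 438 ± 32.8 normalized counts (log2 fold change -0.72, SE 0.07, adjusted p = 3.4e-10, -0.59 with the offsets). FZD6, which works with FZD3 in planar polarity, went from 1581 ± 23.1 to 1080.5 ± 13.9 (-0.55, SE 0.04, adjusted p = 1.6e-11), but with the offsets the difference was -0.07 (adjusted p = 0.119). FZD9, a neural Frizzled, rose by 0.40 (SE 0.12, adjusted p = 0.0034) and was at -0.44 with the offsets (adjusted p = 0.0019).

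FZD5 was at 339.9 ± 13.2 and 340.3 ± 13.5 normalized counts, with a 95% interval for the log2 fold change of -0.16 to 0.16. FZD2 gave -0.13 (adjusted p = 0.350), and -0.54 with the offsets (adjusted p = 5.5e-04). FZD4, a receptor of retinal vessels, gave 0.18 (adjusted p = 0.285), and 0.37 with the offsets (adjusted p = 0.0321). It overlaps PRSS23 on the opposite strand, with 419 counts. FZD10 had at most 20 counts in a library and a log2 fold change of 0.92 (adjusted p = 0.0809), or 0.43 with the offsets. It reached 1.74 without WT 2 (adjusted p = 0.0073). Per length, FZD6 led in WT with 37.4 ± 1.82% of Frizzled FPKM, before FZD7 with 18.3 ± 1.31% and FZD3 with 13.0 ± 0.340%. In GFI1-KO, FZD7 led with 42.7 ± 0.834%, before FZD6 with 22.9 ± 0.387%. FZD9 followed there at 7.77 ± 0.812%, and then FZD2, FZD1 and FZD3 at 5.99 ± 0.578%, 5.41 ± 0.455% and 5.14 ± 0.436%, whose neighbours in this order overlapped between libraries. The ratio of FZD7 to FZD6 FPKM was 0.491 ± 0.0567 in WT and 1.87 ± 0.0567 in GFI1-KO. Its log2 rise was 1.93 without and 1.08 with the offsets. With the folds of the offset fit, FZD7 and FZD6 would hold 34.0% and 32.9% of Frizzled FPKM in GFI1-KO. FZD7 would then stand first by a narrow margin only, and its wide lead rests on the values without offsets. Summed Frizzled FPKM was 63.1 ± 2.08 and 69.8 ± 1.91.

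The 5 co-receptors held the largest change of the pathway. ROR1, a receptor tyrosine kinase-like receptor of WNT5A that is high in embryonic tissue and in several cancers (chromosome 1, 63774022 to 64181498, plus strand), had 338, 354 and 352 counts in WT and 32, 36 and 47 in GFI1-KO. The WT libraries lay close together and far above the GFI1-KO libraries. Normalized counts were 369 ± 22.9 and 36.3 ± 7.12, or 10.2-fold lower in GFI1-KO (log2 fold change -3.34, SE 0.13, adjusted p = 8.6e-18). The offsets moved this to -3.19, and leaving out each library in turn gave -3.50 to -3.23. ROR2, its close relative, had 935, 848 and 942 counts in WT and 1189, 1111 and 1115 in GFI1-KO, a difference of 0.16 (SE 0.05, adjusted p = 0.0057) that became -0.17 with the offsets (adjusted p = 0.0064). ROR1 FPKM was 0.333 ± 0.0255 of that of ROR2 in WT and 0.0293 ± 0.0067 in GFI1-KO, a log2 shift of -3.51 without and -3.02 with the offsets. ROR1 thus fell while its ligand WNT5A rose, and ROR2 differed little in either direction.

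LRP5 and LRP6, the co-receptors of the β-catenin branch, did not move alike. LRP5 (chromosome 11, 68312609 to 68449275, plus strand) had 361, 344 and 373 counts in WT and 886, 930 and 894 in GFI1-KO. The groups were tight and apart, and LRP5 rose by 1.17 (SE 0.06, adjusted p = 3.8e-15), or 0.60 with the offsets (adjusted p = 8.9e-09). LRP6 had 1220, 1240 and 1362 counts in WT and 1415, 1343 and 1296 in GFI1-KO, and its normalized counts overlapped between the groups. Its log2 fold change was -0.08 (95% interval -0.18 to 0.03, adjusted p = 0.187), and 0.32 with the offsets (adjusted p = 5.6e-06). The LRP5 to LRP6 ratio of FPKM was 0.474 ± 0.0198 in WT and 1.12 ± 0.0630 in GFI1-KO. Its log2 rise was 1.25 without and 0.29 with the offsets. RYK, a catalytically inactive kinase that binds WNT ligands, gave -0.10 (SE 0.04, adjusted p = 0.0320). Its call was lost in DESeq2 (adjusted p = 0.0600), and leaving out any library other than WT 3 also lost it, with adjusted p of up to 0.120. With the offsets it was at 0.36 (adjusted p = 4.3e-08).

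Of the 8 secreted antagonists only DKK3, SFRP1 and SFRP5 passed the count filter, and all 3 were higher in GFI1-KO. Among all genes tested 36.5% were higher, and 3 genes are too few to set against that share. DKK3, a divergent member of the Dickkopf family, had 1198, 1034 and 1052 counts in WT and 1604, 1598 and 1570 in GFI1-KO. The rise was modest and the groups did not overlap (0.38, SE 0.05, adjusted p = 6.1e-08, 0.30 with the offsets). SFRP1, a soluble protein with a Frizzled-like domain that binds ligands (chromosome 8, 41261958 to 41309497, minus strand), had 26, 21 and 19 counts in WT and 68, 59 and 57 in GFI1-KO. It was low in both groups, and each GFI1-KO library was above each WT library. It rose by 1.31 (SE 0.24, adjusted p = 2.2e-05), or 1.38 with the offsets. SFRP5 had 27, 26 and 22 counts in WT and 42, 44 and 50 in GFI1-KO. Its rise of 0.69 (SE 0.25, adjusted p = 0.0136) did not pass without WT 3 (adjusted p = 0.0558) or GFI1-KO 3 (adjusted p = 0.0532), and was -0.03 with the offsets. The summed antagonist FPKM, mostly DKK3, was 15.2 ± 0.804 and 20.2 ± 0.257.

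For the genes of β-catenin itself, APC and AXIN1, the direction or the call depended on the offsets. CTNNB1, which encodes β-catenin (chromosome 3, 41194741 to 41260096, plus strand), had 4126, 3952 and 4047 counts in WT and 4054, 4124 and 4186 in GFI1-KO. These raw counts looked alike because the GFI1-KO libraries were deeper. After normalization they were 4282 ± 80.8 and 3904 ± 38.5, without overlap (log2 fold change -0.13, SE 0.03, adjusted p = 7.5e-04). The sign turned with the offsets, to 0.09 (adjusted p = 0.0147). APC, a scaffold of the complex, gave -0.48 (SE 0.06, adjusted p = 2.0e-08), and 0.05 with the offsets (adjusted p = 0.441). AXIN1, the limiting scaffold, gave 0.38 (SE 0.07, adjusted p = 1.3e-05), and -0.22 with the offsets (adjusted p = 0.0075). None of these 3 genes kept its direction and its call under both fits.

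AXIN2, a scaffold of the complex and the most widely used target gene of the β-catenin branch (chromosome 17, 65528563 to 65561647, minus strand), had 70, 74 and 72 counts in WT and 85, 76 and 58 in GFI1-KO. The GFI1-KO libraries spread on both sides of the WT libraries. The log2 fold change was -0.14 (SE 0.18, 95% interval -0.51 to 0.23, adjusted p = 0.492), and -0.39 with the offsets (adjusted p = 0.0675). The interval leaves room for a change of up to 0.51 downward or 0.23 upward on the log2 scale. Since 24.5% of the 50-base words of AXIN2 transcripts also occur in other annotated genes, its count is uncertain.

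All 4 TCF/LEF factors, the DNA-binding partners of β-catenin, were called, LEF1 lower and the other 3 higher. Of all genes tested 72.4% were called, and 4 genes are too few to set against that share. LEF1 (chromosome 4, 108047545 to 108168956, minus strand) had 354, 285 and 359 counts in WT and 166, 168 and 196 in GFI1-KO. Each GFI1-KO library was below each WT library, and the fall was -1.07 (SE 0.10, adjusted p = 2.3e-10), nearly the same with the offsets, at -1.02. TCF7L1, which mostly acts as a repressor (chromosome 2, 85133410 to 85310388, plus strand), had 28, 21 and 17 counts in WT and 69, 117 and 109 in GFI1-KO. It was scarce in WT, and GFI1-KO 1 stood below the other 2 libraries of its group without reaching WT. The rise was 1.99 (SE 0.24, adjusted p = 3.3e-08), or 1.57 with the offsets. TCF7L2, the main factor of the intestine, had 50, 37 and 36 counts in WT and 81, 62 and 75 in GFI1-KO, and rose by 0.66 (SE 0.20, adjusted p = 0.0049), or 0.70 with the offsets. TCF7, known from T cells, rose by 0.52 (SE 0.14, adjusted p = 0.0015), and 0.23 with the offsets (adjusted p = 0.140). It overlaps SKP1 on the opposite strand, with 20250 counts, whose reads cannot be told apart from its own without the strand setting.

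LEF1 took 74.2 ± 3.89% of TCF/LEF FPKM in WT and 39.9 ± 1.66% in GFI1-KO, and stood first in both. TCF7L1 went from last, at 5.96 ± 1.31%, to second, at 26.8 ± 5.68%, although its GFI1-KO range overlapped that of TCF7 at 20.1 ± 1.65%. TCF7L2 went from 7.27 ± 0.998% to 13.2 ± 2.59%. With the folds of the offset fit, LEF1 and TCF7L1 would hold 45.3% and 21.9% in GFI1-KO. The summed FPKM of the 4 factors was 5.36 ± 0.278 in WT and 4.70 ± 0.448 in GFI1-KO.

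Among receptors of R-spondins, the secreted potentiators of WNT signaling, and feedback inhibitors, LGR4 rose and NKD1 fell. The inhibitors ZNRF3 and NKD2 did not pass the test. With the offsets all 3 tested inhibitors were lower, against 28.0% of all genes, a set too small to compare with that share. LGR4, an R-spondin receptor, had 493, 484 and 486 counts in WT and 811, 824 and 812 in GFI1-KO. The replicates were tight, and LGR4 rose by 0.58 (SE 0.06, adjusted p = 1.7e-09), or 0.98 with the offsets. LGR5, its stem cell relative, had 3, 3 and 8 counts against 6, 4 and 10 and was not tested. NKD1, an inhibitor that binds Dishevelled, went from 542 ± 12.02 to 465 ± 58.2 normalized counts (-0.22, SE 0.08, adjusted p = 0.0120, -0.27 with the offsets). Its call was lost without GFI1-KO 3 (-0.14, adjusted p = 0.131) and without GFI1-KO 2 (adjusted p = 0.0533). ZNRF3, a ubiquitin ligase that removes Frizzled receptors, gave -0.08 (adjusted p = 0.227), and -0.41 with the offsets (adjusted p = 8.6e-07). NKD2, the paralog of NKD1, gave -0.06 at 25.7 and 24.6 normalized counts (adjusted p = 0.847), and -0.87 with the offsets (adjusted p = 0.0103). RNF43, the partner of ZNRF3, had at most 2 counts in a library. Other annotated genes share 65.8% of its 50-base words, so its count is uncertain.

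The 14 members that did not pass the filter had at most 10 counts in any library. They were WNT1, WNT2, WNT7A, WNT8A, WNT8B, WNT9B and WNT16, the antagonists DKK1, DKK2, DKK4, SFRP2 and SFRP4, and LGR5 and RNF43. WNT8A and WNT9B had no count anywhere, which allows up to 3 counts in a library. WNT2 had none in WT and 3, 6 and 2 counts in GFI1-KO, whereas WNT8B had 9, 7 and 8 in WT and 5, 2 and 3 in GFI1-KO. DKK1, the classical LRP antagonist, had 0, 0 and 4 against 3, 4 and 3. Differences at such depths were not tested. At a mean of 1 FPKM or more, 25 members were found in WT and 27 in GFI1-KO.

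A further list of 81 genes of the pathway, comprising extracellular regulators, cytoplasmic and nuclear components, planar polarity genes and target genes, was examined beside the members. Of 62 tested, 33 were higher (53.2%, against 36.5% of all genes), 15 lower (24.2%, against 35.9%) and 14 did not pass. The median log2 fold change was 0.31. The fit with offsets gave a median of 0.12 and called 29 higher (46.8%, against 32.6%) and 16 lower (25.8%, against 28.0%). The same shares of all genes apply to the subgroups, which are small. Among extracellular regulators 7 of 10 tested were higher and 2 lower, or 5 and 3 with the offsets. KREMEN1 and KREMEN2, receptors for Dickkopf proteins, rose by 1.94 (947 to 3648 normalized counts) and 1.32 (248 to 616), or by 1.69 and 0.47 with the offsets. GPC3, a cell-surface glypican, and APCDD1, a membrane inhibitor of WNT, fell by 1.90 and 1.03 on the log2 scale, and with the offsets fell by 1.89 and 1.26.

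In the cytoplasmic and nuclear core 17 of 31 were higher (54.8%) and 8 lower (25.8%), or 15 and 7 with the offsets. BCL9L, a coactivator of β-catenin, rose by 1.66, TLE1, a corepressor that binds TCF/LEF factors, by 1.37, and CSNK1E, a kinase of Dishevelled, by 1.25. With the offsets these rises were 1.08, 1.14 and 0.79. CXXC4, which binds Dishevelled and inhibits it, had a log2 fold change of -2.29 (175 to 35.7 normalized counts), or -1.83 with the offsets. In the planar polarity branch 4 of 11 were higher (36.4%) and 2 lower (18.2%), or 5 and 3 with the offsets. CELSR1, an atypical cadherin, rose by 1.12 (0.61 with the offsets), and the formin DAAM1 fell by 1.11 on the log2 scale (by 0.53 with the offsets).

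Of 10 target genes tested, 5 were higher and 3 lower, or 4 and 3 with the offsets. CD44, a cell-surface glycoprotein, rose by 1.93 (2.11 with the offsets) and CDX2, an intestinal transcription factor, by 1.13 (0.61 with the offsets). PROX1, a homeobox factor, fell by 1.54 and TNFRSF19, a receptor of the TNF family, by 1.02 on the log2 scale, and with the offsets they fell by 1.22 and 0.78. The adjusted p of the 14 genes named from this list was at most 7.3e-06. MYC and CCND1, chosen here after their values were seen, did not pass, with log2 fold changes of 0.27 (95% interval -0.42 to 0.96, 0.03 with the offsets) and 0.44 (-0.16 to 1.05, 0.13 with the offsets). Called targets thus lay in both directions. Of the members named at the start as targets, which are not a full set, LEF1 and NKD1 were lower. AXIN2 and ZNRF3 did not pass, and LGR5 and RNF43 were not tested. With the offsets LEF1 and NKD1 stayed lower, ZNRF3 was also called lower (-0.41) and AXIN2 was at -0.39 without passing. The call of NKD1 without offsets was lost when GFI1-KO 2 or GFI1-KO 3 was left out.

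**Figure D5:**
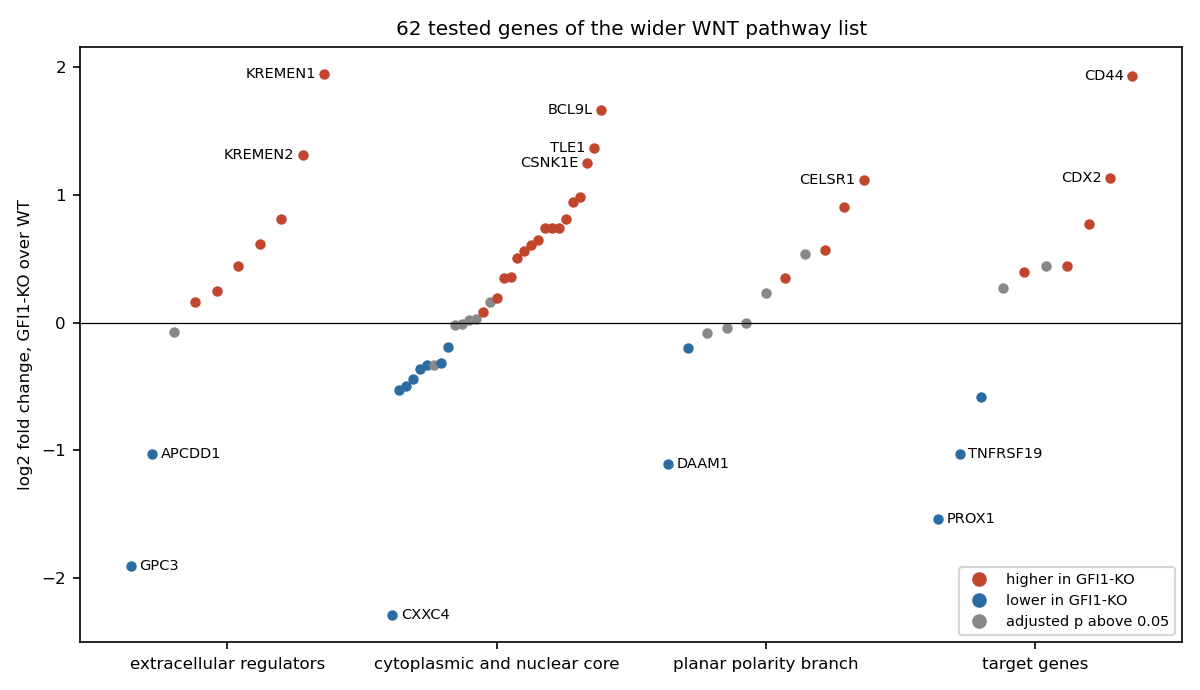
Log2 fold change, GFI1-KO minus WT, of the tested genes of the wider pathway list, by subgroup, each point 1 gene with called genes marked. Called genes lie on both sides of 0 in each subgroup, from CXXC4 at -2.29 to KREMEN1 at 1.94.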

How the data were processed

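RNA was measured in 3 H1155 libraries labelled WT and 3 labelled GFI1-KO. By the paper's methods, RNA was selected with poly-T beads, sequenced on a NovaSeq system, aligned to GRCh38/hg38 with Hisat2 and counted with featureCounts, whereas the submitters' processing notes name Bowtie2 and HTSeq with hg38. The authors deposited raw read counts per gene, without normalization, beside each gene's start, end and length in bases. The annotation, the strand setting and the handling of reads with several matches are not given in the sources used here. Positions are those of the deposited table (1-based, GRCh38), and 99.1% of its identifiers were found in GENCODE 44, which gave GC content and overlaps.

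The whole table was fitted with edgeR 4.0.16 in R 4.3.3 (filterByExpr, TMM, quasi-likelihood F test, Benjamini-Hochberg adjustment over 17514 genes, adjusted p of at most 0.05, no fold minimum, unpaired). The filter corresponded to 0.595 CPM. SE was derived from the log2 fold change and its F statistic (their size ratio, with F under the root), and all folds are GFI1-KO over WT. Normalized counts are scaled to the mean TMM-adjusted library size. Floors of 3 counts cover counting error only, and PCR copies are not independent molecules. In log2 CPM, Pearson's r across genes was 0.991 to 0.993 within groups and 0.937 to 0.942 between them.

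The members, the wider pathway list and the markers were chosen with earlier results of these data known. The values of 1 marker gene are not reported here. Full statistics are given for members with an adjusted p of at most 0.05, a log2 fold change of at least 1 in size and a mean of at least 20 normalized counts in the higher group, and for AXIN2, LEF1 and CTNNB1. Genes of the wider list were named at the same thresholds with a mean of at least 50. A gene was called uncertain where over 10% of its 50-base words occur in other genes. Overlaps on the opposite strand are given beside the gene. The replicate numbers did not pair libraries (correlations of deviations from the group mean of -0.0034, 0.0168 and 0.0230). Alternatives were DESeq2 1.42.0, limma-voom (limma 3.58.1), median-of-ratios, upper-quartile and library-size scaling, no filter, at least 10 counts in every library, an adjusted p of at most 0.01, the replicate number as a block, offsets from natural splines of GC content and length (5 degrees of freedom each), and each library left out. The steps were tested on simulated data. Promoter windows are RefSeq's on GRCh38.p14. Python 3.11.15, pandas 2.3.3 and matplotlib 3.10.9 were used.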

Additional observations from a re-analysis of the deposited data

How the results depend on the processing

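The numbers of members higher and lower in GFI1-KO, 17 and 13, were 14 to 18 and 11 to 17 over the alternatives, and 16 to 18 and 11 to 13 with each library left out in turn. For the wider pathway list, 33 and 15, they were 28 to 34 and 14 to 16, and 30 to 33 and 15 to 16. The same-numbered libraries share a number only, and with the replicate block, 12573 genes were called in place of 12680, and the same 30 members. Signs turned for 13 genes with GC content and length offsets, and for the same genes with these offsets and the replicate block together: LRP6 (0.32 and 0.32), AXIN1 (-0.22 and -0.22), SFRP5 (-0.0321 and -0.0333), APC (0.04996 and 0.0503), WNT10A (-0.0605 and -0.0549), FZD5 (-0.0389 and -0.0389), RYK (0.36 and 0.36), CTNNB1 (0.0902 and 0.0901), ROR2 (-0.17 and -0.17), WNT10B (-0.0454 and -0.0430), WNT7B (-0.39 and -0.39), FZD9 (-0.44 and -0.44) and GFI1 (-0.0074 and -0.0023). Uncalled values near 0 also changed sign. FZD5 was at -0.0033 with median-of-ratios factors and in DESeq2, -0.0405 with upper-quartile factors, -0.0147 with library size alone, -0.0023 with at least 10 counts in every library, and -0.0372 to 0.0336 with each library left out, below 0 without WT 3 (-0.0372) or GFI1-KO 3 (-0.0236). WNT5B was at 0.0013 with no filter and at -0.0437 to 0.0136 with each library left out, above 0 without WT 3 (0.0136), GFI1-KO 1 (0.0090) or GFI1-KO 2 (0.0134). With each library left out, NKD2 lay at -0.150 to 0.0759 and AXIN2 at -0.266 to 0.0074, both above 0 without GFI1-KO 3. The cause of these changes was not tested. With at least 10 counts in every library, WNT3A, WNT4, WNT7B, WNT11 and FZD10 gave no value. DESeq2 called 28 members, and 26 of the 30 calls held with every library left out, the others being SFRP5, RYK, NKD1 and WNT10A. Members under about 10 counts in each library are beyond what these depths can compare.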
